A study of Mus musculus with 2 samples.

Results

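Hypoxia-gene-high cells are the cells of a long-term culture of primary mouse brain pericytes (PCs) that carried the most RNA of 5 genes known to respond to low oxygen. They were taken from the passage 20 library (PC20). For each cell the molecules counted by unique molecular identifier (UMI, a random tag added to each captured RNA) of *Car9*, *Vegfa*, *Adm*, *Bnip3* and *Ndrg1* were summed and divided by all UMIs of the cell, and the 10% of cells with the highest score were chosen. This gave 475 of 4749 cells, out of 14699 cells kept in both libraries of the series, and the other 4274 PC20 cells were the comparison. PC20 is a wild type C57BL/6N culture from brains of 6 female mice aged 6 to 8 weeks, grown to passage 20, first in endothelial cell growth medium and then in a commercial pericyte medium, and the passage 5 culture (PC5) was made in the same way. According to the study's methods each culture was started from its own isolation of pooled brains, while the deposited design text speaks of a single isolation, so passage and isolation cannot be told apart. There was 1 library per passage and no replicate, so no test was made anywhere in what follows. The PC20 library held 191306354 UMIs in 4884 barcodes, of which 135 were left out for holding 1000 genes or fewer or at least 20% mitochondrial UMIs, and the PC5 library held 223978480 UMIs in 10629 barcodes, of which 9950 were kept. The libraries shared 20 cell barcodes, and 3 of the 475 cells carried such a barcode.

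When oxygen is scarce, prolyl hydroxylases no longer mark the alpha subunits of the hypoxia-inducible factors (HIFs) for removal by the VHL ubiquitin ligase. The stabilized factor pairs with ARNT and binds the letters ACGTG or GCGTG in hypoxia response elements near its target genes, which serve glucose uptake, glycolysis, pH control, vessel growth and mitochondrial turnover. Pericytes sit on capillaries, and in culture the oxygen that reaches them depends on density and medium. The oxygen of these cultures is not given in the sources used here, and the name hypoxia-gene-high refers only to the transcripts of the score.

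The letters ACGTG, on either strand, were looked for in the 250 bases before the annotated starts of mouse genes, in RefSeq promoter windows of GRCm38.p6, the assembly also called mm10. They stood in 30 of 74 promoters (40.5%) of 48 score, glycolysis and HIF-1 target genes that matched the table out of 58, and in 2269 of 10088 promoters (22.5%) of all genes counted in PC20. The letters GCGTG stood in 54.1% and 46.7%, and the E-box CACGTG, which contains ACGTG and is bound by other factors too, in 8.11% and 8.70%. Runs of 30 bases around a match are shown for 6 of these genes, so that the letters can be seen in context. They were picked for their place in the pathway among genes with a match, so they do not stand for the listed genes. *Ankrd37* had another match in the 250 bases that is not shown. Capitals mark ACGTG or its reverse complement CACGT, and the runs read along the strand of the gene.
*Car9* at chr4:43506996-43507025, plus strand, a cell surface carbonic anhydrase: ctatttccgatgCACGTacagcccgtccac
*Bnip3* at chr7:138909597-138909626, minus strand, a mitophagy receptor: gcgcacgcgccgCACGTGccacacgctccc
*Slc2a1* at chr4:119108697-119108726, plus strand, the glucose transporter GLUT-1: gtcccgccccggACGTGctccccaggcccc
*Egln1* at chr8:124949305-124949334, minus strand, an oxygen-sensing prolyl hydroxylase: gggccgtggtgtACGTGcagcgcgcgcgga
*Pfkfb3* at chr2:11553972-11554001, minus strand, an activator of glycolysis: ctccgcgccgtgACGTGccaagctgtgacc
*Ankrd37* at chr8:45999851-45999880, minus strand, an ankyrin repeat protein: ggctgcacatgtcagtgtttgggtACGTGa
The match began 108 bases before the start of *Bnip3*, where it forms the E-box, and 6 bases before the start of *Ankrd37*, and the others lay between. These are the RefSeq starts. By the wider gene spans of GENCODE M21, from which gene positions below are taken, the runs of *Car9*, *Pfkfb3* and *Ankrd37* lie inside the gene, those of *Slc2a1* and *Egln1* cross its start, and that of *Bnip3* lies before it. These are matches of letters, not measured binding sites.

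The score had a continuous distribution with no gap at the limit. The last cell inside had 2757 score UMIs per 1000000 and the first cell outside had 2753, and 324 cells lay within 10% of the limit, 127 of them inside. The median score was 3357 in the chosen cells and 1413 in the others, the highest was 7422, and 39 cells of the library had none. The limit thus cuts through a range of scores, and whether the cells form a population of their own cannot be read from the score.

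**Figure D1:**
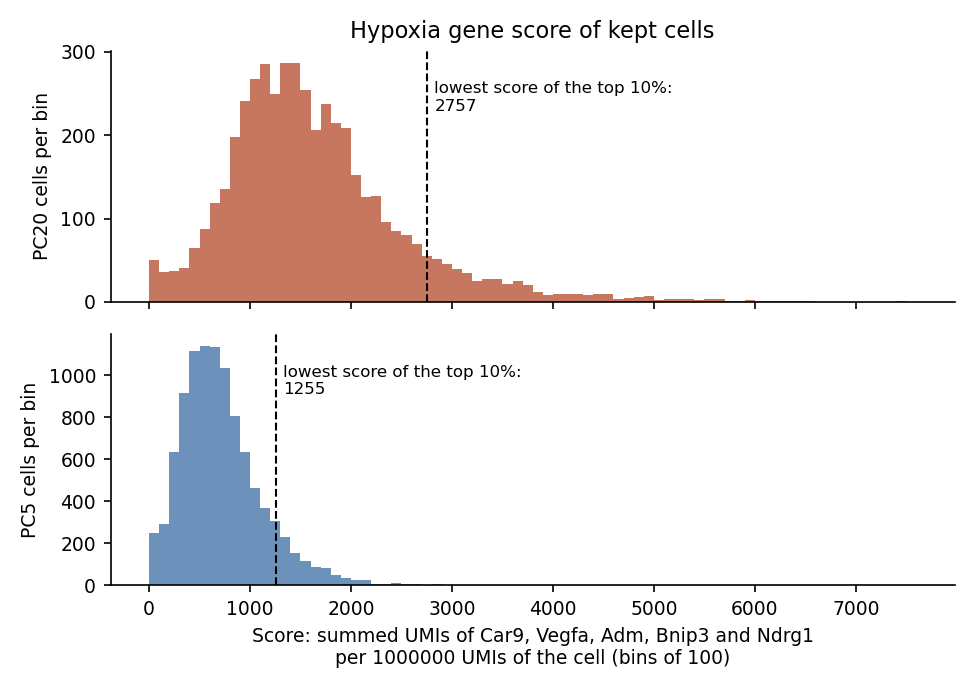
Number of kept cells (y axis) by score, the summed UMIs of the 5 score genes per 1000000 UMIs of the cell (x axis, bins of 100), in PC20 (top) and PC5 (bottom). Dashed lines mark the lowest score of the top 10% of each library, 2757 in PC20 and 1255 in PC5, and neither distribution has a gap there.

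The 5 score genes chose the cells, so their levels describe the choice and support nothing. *Car9* (ENSMUSG00000028463, chr4:43506966-43513729) makes a carbonic anhydrase at the cell surface that turns carbon dioxide into bicarbonate and acid. Its level, in UMIs per 1000000 UMIs summed over the cells (counts per 1000000, CPM), was 657 in hypoxia-gene-high cells and 395 in the others. Per cell it ran from 115 over a median of 629 to 3289 in the chosen cells, and from 0 over 374 to 1566 in the others. *Car9* had a UMI in 97.1% of all kept PC20 cells, and the groups overlapped widely. *Vegfa* (ENSMUSG00000023951, chr17:46016993-46032369), the main growth factor for vessels, was at 379 against 192 CPM, and *Adm* (ENSMUSG00000030790, chr7:110627661-110629820), the vasodilator adrenomedullin, at 320 against 113 CPM. *Bnip3* (ENSMUSG00000078566, chr7:138890836-138909519), which marks mitochondria for autophagy, was at 1200 against 511 CPM. *Ndrg1* (ENSMUSG00000005125, chr15:66929318-66969640), a stress-responsive gene of differentiating cells, was at 978 against 230 CPM, a ratio of 2.09 on the log2 scale and the largest of the 5.

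**Figure D2:**
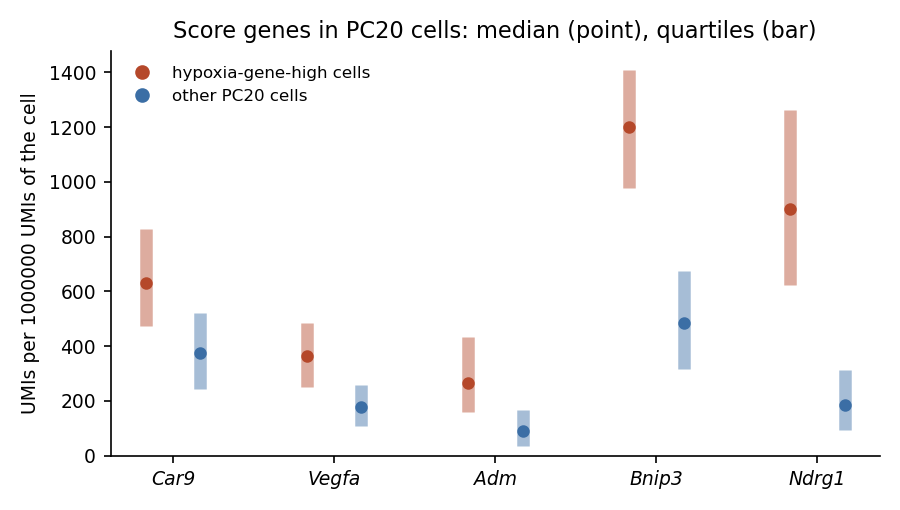
UMIs per 1000000 UMIs of the cell (y axis, from 0) for each score gene in the 475 hypoxia-gene-high cells and the 4274 other PC20 cells. Points are medians over cells and bars span the quartiles; the *Ndrg1* medians are 901 and 184, and those of *Car9* are 629 and 374.

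UMIs of all 5 score genes were seen in 455 of the 475 cells (95.8%), and in 78.6% of the other cells, which had more UMIs in all. The score is their sum, so a larger share in the chosen cells follows from the choice, and 1 UMI of a gene may also come from free RNA in the droplet. The gene with the most UMIs was *Bnip3* in 304 cells, *Ndrg1* in 125, *Car9* in 37, *Adm* in 6 and *Vegfa* in 3. Over 4488 PC20 cells thinned to 10000 UMIs each, the pairs of score genes had Spearman's rho between 0.13 for *Car9* with *Vegfa* and 0.46 for *Bnip3* with *Ndrg1*, as a description of cells of 1 library that share depth and handling.

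Hypoxia-gene-high cells had fewer UMIs than the others. Their median was 25704 UMIs and 4584 genes, against 34544 UMIs and 5469 genes in the other PC20 cells, and the middle 50% of cells ran from 20366 to 36318 against 24855 to 51176 UMIs. Mitochondrial UMIs made up a median of 1.72% against 2.08%, and ribosomal protein genes 32.0% against 33.4% of all UMIs. The chosen cells were thus neither richer in mitochondrial RNA nor deeper, and no doublet caller was run. Depth lies in the denominator of the score, and its part in the results below is given where the values show it. Sets chosen further on by a share of UMIs were also shallow. The median was 27237 UMIs in the set chosen on ATF4 targets and 26935 in that chosen on *Arrdc3*, *Nr1d1* and *Nfkbia*.

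Marker genes of other brain cells were mostly rare in both groups. Of the endothelial markers, *Pecam1* had 1 UMI and *Cldn5*, *Kdr* and *Tek* had 0 in all 475 cells, for a summed level of 0.0714 CPM against 0.248 CPM in the others. All 4 microglial markers, led in the library by *Csf1r*, were at 0 UMIs. The astrocyte list came to 274 against 225 CPM, nearly all of it the bicarbonate transporter *Slc4a4*, with *Gfap*, *Aqp4* and *Aldh1l1* at 0. The fibroblast list came to 113 against 100 CPM, nearly all of it *Col3a1*, with *Lum* at 0. The neuronal list came to 2.71 against 5.31 CPM, all from *Tubb3* in the chosen cells, whose log2 ratio was -0.96. The blood markers came to 0.143 against 0.0395 CPM, from 2 UMIs of *Hbb-bs* in the chosen cells.

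RNA of the pericyte markers was low in both groups. The study based pericyte identity on expression of PDGFRβ, the protein of *Pdgfrb*, and shows staining of this protein in cultured pericytes. It also reports that marker expression was lowest in cultured cells among its pericyte groups. The values here are of RNA only, so the label pericyte was not tested by them. Of the pericyte markers, *Pdgfrb*, the PDGF receptor by which these cells are usually known, was at 4.35 against 5.51 CPM, *Anpep* at 3.85 against 2.93 CPM, and *Cspg4*, *Rgs5* and *Abcc9* were at 0 UMIs in the chosen cells. The smooth muscle list was carried by *Acta2*, the actin of contractile cells, at 29.8 against 50.7 CPM (log2 ratio -0.77, 95% counting interval -0.91 to -0.63), while *Tagln* and *Myh11* were at 0. All intervals given here cover counting error only.

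Genes with a UMI in at least 10% of PC20 cells were counted, 9951 in all, and a gene was called higher or lower where its CPM ratio of hypoxia-gene-high over other cells was at least 0.5 or at most -0.5 on the log2 scale. By this rule 504 genes (5.06%) were higher and 1366 (13.7%) lower. The median over all counted genes was -0.10, and centring the ratios on it, a choice made after the data were seen, gave 740 higher and 937 lower. The cells were chosen on values of the same cells, so all ratios of this comparison are descriptions, and the counts below stand beside those shares without a test.

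Glucose uptake and glycolysis genes lay above 0 as a group. Of 22 listed genes 20 were counted, *Slc2a3* and *Pfkfb4* being too rare, and 9 were higher and 0 lower, with a median of 0.49 and all 20 above 0. *Slc2a1*, which carries glucose across the cell membrane, was at 287 against 112 CPM (log2 ratio 1.36, 1.31 to 1.41). *Pfkfb3*, whose product switches on phosphofructokinase, was at 108 against 35.6 CPM (1.60, 1.51 to 1.68). These were the widest gaps of the list, and the counting intervals of both lay far from 0. The hexokinases *Hk1* and *Hk2*, which trap glucose in the cell, had ratios of 0.69 and 0.61, the isomerase *Gpi1* 0.81, the phosphofructokinase *Pfkp* 0.64 and the mutase *Pgam1* 0.51, just past the limit. The isozymes *Aldoc* and *Eno2*, best known from brain, had 0.88 and 1.12. Other enzymes of the pathway had smaller ratios. *Pgk1* was at 2584 against 2028 CPM (0.35), *Ldha*, which makes lactate, at 2041 against 1611 CPM (0.34), and *Gapdh* at 3958 against 2824 CPM (0.49). *Slc16a3*, the lactate exporter, had 0.26 and *Pdk1*, a kinase that inhibits pyruvate dehydrogenase, 0.49.

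HIF-1 targets outside glycolysis showed the same picture with a wider spread. Of 40 listed symbols 39 were in the file and 33 were counted, of which 19 were higher and 0 lower, with a median of 0.62 and 31 above 0. *Hilpda*, which blocks fat breakdown on lipid droplets, was at 152 against 39.6 CPM (1.94, 1.87 to 2.01). *Bhlhe40*, a transcriptional repressor also tied to the circadian clock, was at 262 against 71.1 CPM (1.88, 1.83 to 1.94), and *Ankrd37* at 137 against 37.4 CPM (1.88, 1.80 to 1.95). These 3 were also among the 15 genes with the largest ratio, the score genes left out. *Bhlhe40* was also high in cells outside the hypoxia-gene-high ones, which were chosen on *Arrdc3*, *Nr1d1* and *Nfkbia* and are described further on. Others above 1 included *Zfp395* (1.47), *Ddit4* (1.45), an inhibitor of mTORC1 signalling, *Mxi1* (1.43), an antagonist of MYC, *Kdm3a* (1.22), a histone demethylase, and *Ccng2* (1.14), a cyclin of resting cells. *Ero1l*, which forms disulfide bonds in the endoplasmic reticulum, was at 4143 against 2520 CPM (0.72), and the prolyl 4-hydroxylase gene *P4ha2*, needed for collagen, had 0.65. Glycogen synthase *Gys1* had 0.95 and *Stbd1*, a glycogen-binding protein, 0.65.

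Some known targets lay near or below 0. *Hmox1*, heme oxygenase, was at 592 against 593 CPM, *Stc2* at 21.6 against 21.5 CPM and *Cited2*, which competes with HIF for a coactivator, at 51.8 against 49.2 CPM. *Lox*, which crosslinks collagen, was at 115 against 140 CPM (-0.28, -0.35 to -0.21). *Car12*, *Angptl4*, *Stc1*, *Tmem45a*, *Cox4i2* and *Ppfia4* had too few UMIs to be counted. Among the pathway's own regulators, *Hif1a* was at 175 against 169 CPM (0.05, -0.01 to 0.11) and *Arnt* at 40.7 against 30.1 CPM (0.43), while *Egln1* was at 390 against 192 CPM (1.03) and *Vhl* at 18.6 against 10.7 CPM (0.80). Of 7 regulators counted 2 were higher and 0 lower, with a median of 0.34. The RNA of *Hif1a* itself thus differed little, and *Egln2*, another prolyl hydroxylase, was at 15.8 against 22.0 CPM (-0.48).

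**Figure D3:**
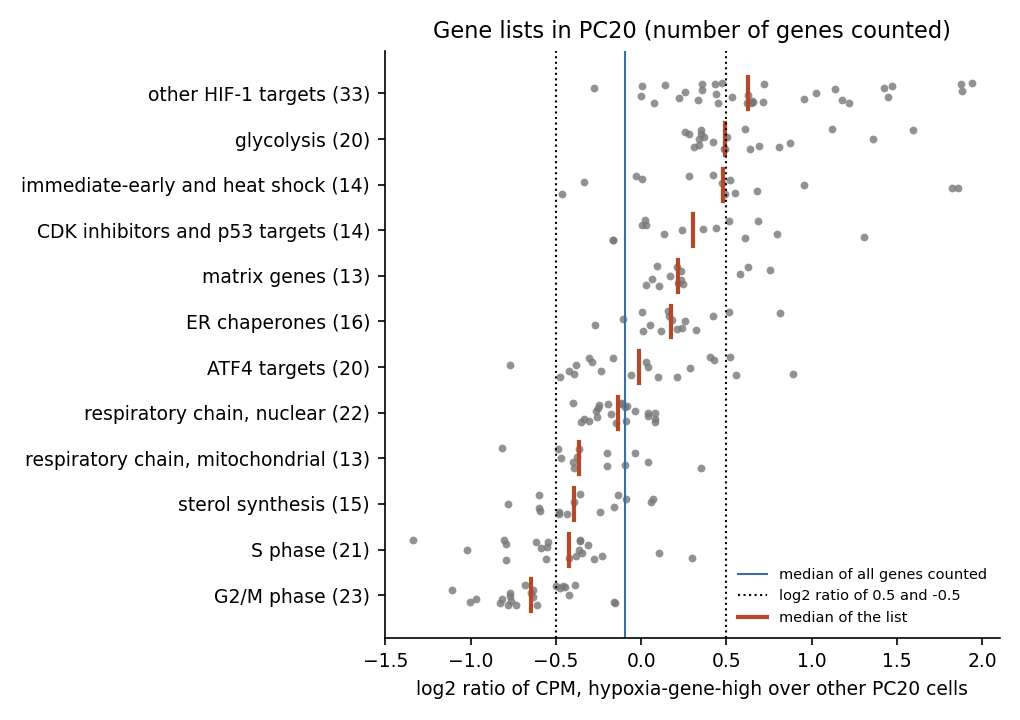
Log2 ratio of CPM in hypoxia-gene-high over other PC20 cells (x axis) for each counted gene (grey points) of 12 lists, with the number counted in brackets. Red bars are list medians, from 0.62 for other HIF-1 targets to -0.64 for G2/M phase, the blue line is the median of all counted genes at -0.10, and dotted lines mark 0.5 and -0.5.

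Promoters of the genes called in the cells were searched for the same letters. ACGTG stood in 123 of 485 promoters (25.4%) of the higher genes and 263 of 1349 (19.5%) of the lower genes, beside 22.5% of all counted. For GCGTG the shares were 51.5%, 44.7% and 46.7%. The listed pathway genes had 40.5% for ACGTG and 54.1% for GCGTG. The higher genes include the 5 score genes, which chose the cells, and the listed pathway genes that were called higher. Their shares are therefore not independent of the score or of the list.

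The list medians of glycolysis and other HIF-1 targets were graded over the whole library, not only at the limit, while single genes varied. Cells were split by score into 10 bins of equal cell number, the first being the hypoxia-gene-high cells. *Slc2a1* went from 287 CPM in the first bin over 177 in the second to 50.03 in the last, and *Ankrd37* from 137 over 72.7 to 11.2 CPM. *Pgk1* went from 2584 over 2388 to 1374 CPM. Of the 20 glycolysis genes 13 were lower in every next bin, 19 were highest in the first and 18 lowest in the last. Of the 33 other HIF-1 targets 11 were lower in every next bin, and 24 were highest in the first and 24 lowest in the last. Of all 9951 counted genes, 1.06% were lower in every next bin, 19.0% were highest in the first and 27.0% lowest in the last. None of these genes entered the score, although the first and the last bin were also the shallowest, with medians of 25704 and 26717 UMIs per cell.

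**Figure D4:**
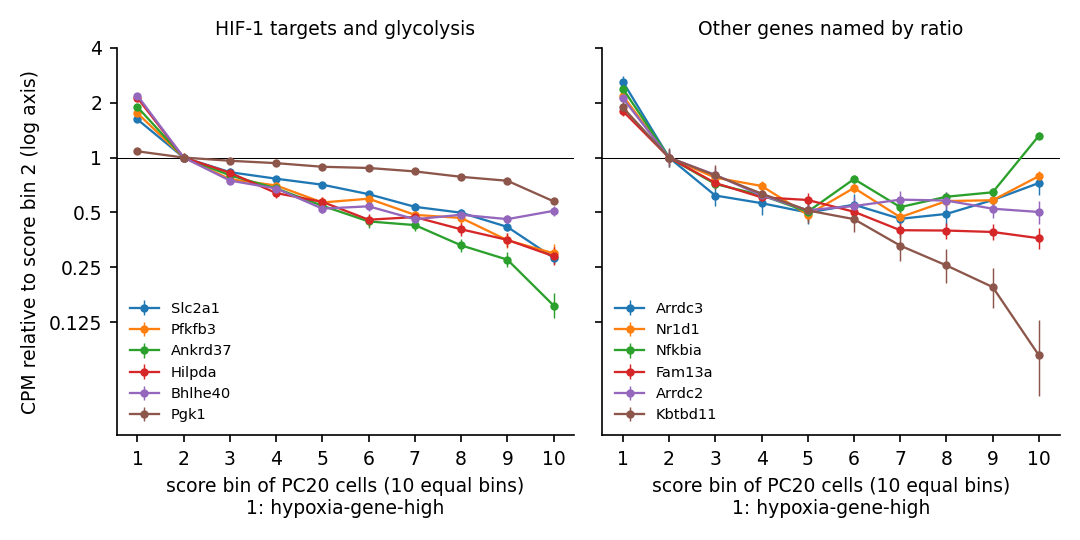
CPM relative to the second bin (y axis, log scale) over 10 equal bins of PC20 cells by score (x axis, 1 being the hypoxia-gene-high cells), with 95% Poisson intervals. HIF-1 targets and glycolysis genes (left) go down over the bins, as *Ankrd37* from 137 to 11.2 CPM, except that *Bhlhe40* is lowest in bin 7. *Arrdc3*, *Nr1d1* and *Nfkbia* (right) stand out in bin 1, are lowest in bins 7, 7 and 5, and are higher again in bin 10.

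Among the 15 genes with the largest ratio, the score genes left out, several that are not listed as HIF-1 targets had another course. *Arrdc3*, an arrestin family member that curbs receptor signalling, was at 46.7 against 10.7 CPM (2.12, 1.99 to 2.25), with 17.9 in the second score bin and 13.0 in the last. *Nr1d1*, the clock repressor REV-ERB alpha, was at 170 against 51.5 CPM (1.72), with 77.9 and 61.7 in those bins. *Nfkbia*, the inhibitor of NF-kB, was at 242 against 72.9 CPM (1.73), with 101 and 133. These genes stood out in the first bin and were not lowest in the last. By contrast *Selenbp1* (2.18, the largest ratio of all), *Kbtbd11* (2.00), *Slc25a34* (1.76) and *Fam13a* (1.72) were lower in every next bin, as was *Ankrd37*. *Rgcc*, a cell cycle regulator, had 1.98, *Espn*, an actin bundling protein, 1.86, and *Arrdc2* 1.76. The heat shock genes *Hspa1a* (1.86) and *Hspa1b* (1.82) rested on 186 and 214 UMIs and are near-identical copies between which reads cannot be told apart with certainty.

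Since *Arrdc3*, *Nr1d1* and *Nfkbia* stood apart, the 10% of PC20 cells highest in their summed UMIs were compared, a set chosen after the data were seen. It held 180 of the 475 hypoxia-gene-high cells (37.9%). These genes were picked for their large ratios in the same cells, so an overlap above the 10.0% of the library was built into the choice. The 295 hypoxia-gene-high cells outside it kept medians of 0.47 for glycolysis and 0.63 for other HIF-1 targets, relative to cells in neither set. The 295 cells of that set outside the hypoxia-gene-high cells had -0.19 and -0.29. Their other HIF-1 targets went both ways, with 10 of 33 higher, beside 7.57% of all genes, and 13 lower, beside 19.5%. *Slc2a1* was at 122 CPM in them against 111 in cells in neither set and 265 in hypoxia-gene-high cells outside it. The pathway medians of the hypoxia-gene-high cells were thus similar without the overlapping cells. *Bhlhe40* went with both sets. It was at 462 CPM in the cells they share, 148 in the hypoxia-gene-high cells outside the other set, 268 in the cells of that set that were not hypoxia-gene-high, and 58.7 in cells in neither. *Hilpda* in the same order was at 207, 120, 60.4 and 38.3 CPM. Without the cells of that set *Ddit4* had a ratio of 0.95 in place of 1.45, and over the score bins it went from 166 CPM over 84.96 to 60.1, with its lowest value in bin 7, as for *Arrdc3*. *Arrdc2* had 1.16 without them. *Nfkbia*, one of the genes that chose the set and so bound to be lower outside it, was at 72.5 CPM in the hypoxia-gene-high cells outside the set, against 40.8 CPM in cells in neither.

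The cell cycle lists had medians below 0. Of 23 G2/M genes counted 0 were higher and 15 lower (median -0.64, none above 0), and of 21 S phase genes 0 were higher and 10 lower (median -0.42). *Cenpe*, a kinetochore motor, was at 42.9 against 92.6 CPM (-1.11, -1.23 to -0.99), and *Ccnb1*, the cyclin that drives entry into mitosis, at 38.2 against 67.8 CPM (-0.83). *Top2a* had -0.16 and *Rrm2*, which makes deoxynucleotides, 0.10. A UMI of *Mki67* or *Top2a* was seen in 304 of the 475 cells (64.0%, 59.5 to 68.3) against 73.1% (71.7 to 74.4) of the others, and in 46.4% against 58.6% after thinning to 10000 UMIs, with 29 and 232 shallower cells left out. In the cells chosen on *Arrdc3*, *Nr1d1* and *Nfkbia*, 68.4% had such a UMI, or 52.6% after thinning. In a set chosen on ATF4 targets, described further on, the shares were 64.0% and 49.3%. Both sets overlap the hypoxia-gene-high cells, and a lower share was not particular to the latter. Free RNA in the droplets can also give a UMI of *Mki67* or *Top2a*, and no cell type without them was present to measure that background. Depth moved with this result: where the top 10% was taken within each of 5 equal classes of depth, the G2/M median was -0.17 and the shares were 70.9% and 72.3%, while the glycolysis and other HIF-1 medians were 0.46 and 0.57. The part of depth in the cell cycle result was not tested further.

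The cycle genes also differed with the leading score gene. In the cells led by *Ndrg1* all 23 G2/M genes were lower, beside 25.9% of all counted genes, with a median of -1.40 against the cells that were not chosen, and *Mki67* was at 58.1 CPM. In the 304 cells led by *Bnip3* the median was -0.42 with 9 lower, beside 12.0% of all genes, and *Mki67* was at 152 CPM. The 37 cells led by *Car9* had -0.83, with 20 lower, beside 16.5% of all genes. Other HIF-1 targets had similar medians in these groups, 0.73, 0.58 and 0.65. Without *Ndrg1* in the score, the G2/M median over the top 10% was -0.46.

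Genes that hold the cycle back included some higher ones. Of 14 CDK inhibitors and p53 targets counted 5 were higher and 0 lower, with a median of 0.30. *Cdkn1b*, the inhibitor p27 of resting cells, was at 202 against 81.5 CPM (1.31, 1.25 to 1.36), and *Cdkn2c*, *Sesn1*, *Trp53inp1* and *Bbc3* had 0.61, 0.69, 0.80 and 0.51. *Cdkn1a*, the inhibitor p21 and a main target of p53, was at 235 against 198 CPM (0.24), and *Mdm2* at 132 in both groups. This list was higher still in the cells chosen on *Arrdc3*, *Nr1d1* and *Nfkbia*. Relative to cells in neither set, 11 of the 14 genes were higher in the cells of that set that were not hypoxia-gene-high (median 0.74), beside 7.57% of all genes, and 2 in the hypoxia-gene-high cells outside it (median 0.22), beside 4.48%. *Cdkn1b* was at 210 CPM in the former, 157 in the latter and 73.4 in cells in neither set.

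Among respiratory chain genes, the median of the mitochondrially encoded ones lay below that of all genes (-0.10), while that of the nuclear subunits lay near it. Of 22 nuclear subunits counted 0 were higher and 0 lower (median -0.13). Of the 13 mitochondrially encoded ones 1 was lower, *mt-Nd3* (-0.81), with a median of -0.36, while *mt-Co1* was at 6198 against 6033 CPM (0.04) and *mt-Nd6* at 146 against 115 CPM (0.35). In mitophagy and autophagy 3 of 11 genes were higher and 0 lower (median 0.08). These were *Ulk1* (1.11), the kinase that starts autophagy, *Gabarapl1* (0.60), and *Bnip3l* (0.54), the sister gene of *Bnip3* and itself a HIF-1 target.

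Vessel, acid and metal handling genes were mixed. Of 8 secreted angiogenic factors counted 2 were higher and 0 lower (median 0.10), *Apln* (0.78) and *Angptl6* (0.51), while *Pdgfa* had -0.36. Of 7 acid and bicarbonate handling genes 1 was higher, *Bsg* (0.81), the chaperone of lactate transporters, at 3236 against 1843 CPM (median 0.26). Of 10 metallothionein and iron genes 3 were higher and 1 lower (median 0.11). The metallothioneins *Mt1* and *Mt2*, which bind zinc, were at 8031 against 3733 CPM (1.11) and 4172 against 2297 CPM (0.86), and the iron exporter *Slc40a1* had -0.56. Of 13 matrix genes 3 were higher and 0 lower (median 0.21), among them fibronectin *Fn1* at 614 against 397 CPM (0.63).

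Immediate-early and heat shock genes, which can mark handling but not handling alone, had a median above 0 in PC20, and other stress lists differed from one another. Of 14 immediate-early and heat shock genes 6 were higher and 0 lower (median 0.48, beside 0.49 for glycolysis), with *Fos* at 60.01 against 30.9 CPM (0.96) and *Hspa8* at 736 against 752 CPM. In PC5, by the same rule, the median over 12 of them was 0.04. Their part in the other results was not tested. Of 20 ATF4 targets, the genes of amino acid stress, 3 were higher and 1 lower (median -0.01): *Ddit3*, the stress factor CHOP, was at 1563 against 841 CPM (0.89), *Slc3a2* had 0.56, *Slc7a5* 0.52, *Asns* -0.06, and *Chac1* -0.77. Of 16 endoplasmic reticulum chaperone genes 2 were higher and 0 lower, *Dnajb9* (0.82) and *Xbp1* (0.51), and 14 lay above 0 (median 0.17, summed level 10683 against 9115 CPM). Of 8 NF-kB targets and chemokines 2 were higher and 4 lower (median -0.26), among them *Cxcl10* at 25.1 against 81.8 CPM (-1.70) and *Ccl5* (-1.32). The last score bin raised the values they are set against, with *Cxcl10* at 285 CPM and *Ccl5* at 188 CPM there, while their lowest values in the bins after the first were 36.4 and 41.2 CPM. The ratio of *Cxcl10* was -0.78 for the top 20% of cells and -4.44 in cells with no *Mki67* and no *Top2a* UMI. Of 15 sterol synthesis genes 0 were higher and 4 lower (median -0.39), with *Hmgcs1* at -0.78.

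For comparison, the 10% of PC20 cells highest in 5 ATF4 targets (*Asns*, *Trib3*, *Chac1*, *Ddit3* and *Psat1*) were taken. Of 20 ATF4 targets 3 were higher in this set, beside 1.60% of all genes (median 0.02). The 5 genes that chose the set are among these 20, so the count follows in part from the choice. *Chac1* was at 51.8 and *Psat1* at 229 CPM there, against 60.04 and 235 CPM in cells that were neither hypoxia-gene-high nor high in *Arrdc3*, *Nr1d1* and *Nfkbia*. Those cells were taken without regard to the ATF4 set, so they are not the cells outside it. They leave out the hypoxia-gene-high cells, where *Chac1* was at 33.7 and *Psat1* at 195 CPM. The set shared 163 cells with the hypoxia-gene-high cells, 34.3% of each set, where each set was 10.0% of the library. Against the cells not in the set its cells had medians of 0.26 for glycolysis, 0.32 for other HIF-1 targets and -0.51 for G2/M, where hypoxia-gene-high cells had 0.49, 0.62 and -0.64. *Hilpda* was at 96.6 CPM there and at 152 CPM in hypoxia-gene-high cells, and *Ddit3* at 2294 and 1563 CPM. The sets overlap and *Ddit3* carries much of the second score, so these values stand side by side without a test.

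The 15 genes with the smallest ratio were mostly rare. *Igf2bp1*, an RNA-binding protein of growing cells, had 10 UMIs in all hypoxia-gene-high cells, at 0.714 against 3.91 CPM (-2.45, -3.52 to -1.57), *Tigar*, which slows glycolysis, was at 1.78 against 8.42 CPM (-2.24, -2.87 to -1.67), and *Pmepa1*, a curb on TGF-beta signalling, at 3.21 against 12.8 CPM (-1.99). Beside *Cxcl10*, the others were *Pcolce2*, *Tmem2*, *Ptprf*, *Nrg1*, *Cdca7*, *Taf4b*, *Zbtb10*, *Tmem144*, *Tmem121*, *Dlk2* and *Cables2*, with ratios from -1.96 to -1.57. Of these, *Cdca7*, a gene of dividing cells, was at 5.64 against 19.5 CPM. The ratios depended on how many cells were taken, as with *Igf2bp1* at -1.27 and *Tigar* at -1.06 for the top 20% of cells.

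The same rule was applied to PC5, a library that had no part in choosing the genes by their PC20 values. It gave 995 of 9950 cells with a limit of 1255 UMIs per 1000000, below that of PC20. The same 5 genes entered the score there with other shares. *Car9* was at 1.65 against 0.576 CPM and rested on 30 UMIs in the chosen cells, and *Ndrg1* was at 47.7 against 19.2 CPM, while *Adm* was at 750 against 297 CPM, *Vegfa* at 400 against 155 and *Bnip3* at 364 against 158. *Adm* led in 650 cells, *Vegfa* in 233 and *Bnip3* in 107.

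Outside the score, the pathway genes again stood together in PC5. Among 9161 genes counted there 634 (6.92%) were higher and 178 (1.94%) lower, with a median of 0.13. Of 21 glycolysis genes 7 were higher and 0 lower (median 0.40), and of 34 other HIF-1 targets 19 were higher and 1 lower (median 0.54). *Pfkfb3* was at 27.9 against 13.6 CPM (1.04), *Slc2a1* at 39.1 against 20.8 CPM (0.91) and *P4ha2* at 55.8 against 25.2 CPM (1.15). *Ddit4* was the exception, at 21.5 against 32.0 CPM (-0.57), and *Gapdh* had -0.22. Of 23 G2/M genes 0 were higher and 20 lower (median -0.76), and a *Mki67* or *Top2a* UMI was seen in 28.7% of the cells against 46.8%, with medians of 18307 and 22233 UMIs. Depth moved with this too: where the top 10% was taken within 5 depth classes, the G2/M median was -0.25 and the shares were 36.0% and 46.0%.

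Genes of hypoxia-gene-high cells in PC20 were partly those of PC5. Of the 378 genes higher in PC20 that were counted in both libraries, 80 (21.2%) were higher and 5 lower in PC5, where 5.32% of all 8609 genes counted in both were higher and 1.96% lower. The same score chose the cells in both libraries, so any score genes among the 80 follow from that choice. Of the 1076 genes lower in PC20, 60 (5.58%) were higher and 74 (6.88%) lower in PC5. Of the 15 genes with the largest PC20 ratio only 8 were counted in both, and 3 of them were higher in PC5: *Rgcc* (0.99), *Fam13a* (0.65) and *Hilpda* (0.51). Of the 15 with the smallest PC20 ratio 8 were counted in both, of which 2 were higher and 0 lower in PC5 (median 0.22). *Arrdc3*, *Nr1d1* and *Nfkbia* had 0.09, -0.03 and 0.18. PC5 cells of the top 10% also had matrix genes high, with 8 of 15 higher (median 0.51), where PC20 had 3 of 13. Fibroblast markers moved with them: of 4 listed the 3 that were counted were all higher, *Pdgfra* (0.67), *Dcn* (1.56) and *Col3a1* (0.90, also a matrix gene), *Lum* was at 9.92 against 3.01 CPM, and the list came to 2290 against 1214 CPM. Of the smooth muscle markers *Tagln* had 0.52 and *Acta2* 0.42. Mitochondrial UMIs made up a median of 2.85% against 2.57% and ribosomal protein genes 28.7% against 34.1% of all UMIs. The part of these in the PC5 values was not tested.

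**Figure D5:**
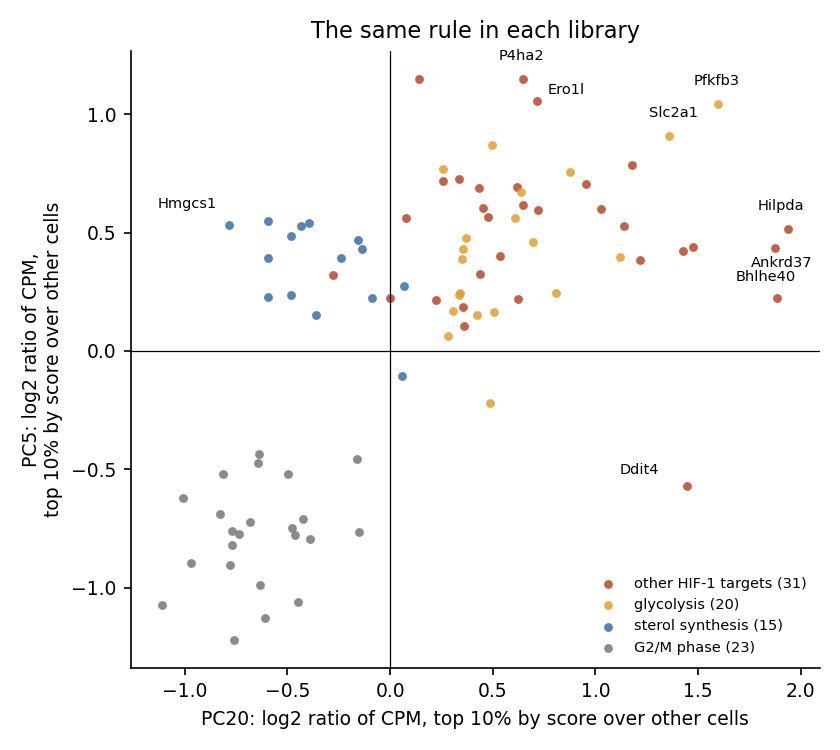
Log2 ratio of CPM in the top 10% of cells by score over the other cells, in PC20 (x axis) and PC5 (y axis), for genes of 4 lists counted in both libraries, with the number of genes in brackets. Most HIF-1 target and glycolysis genes lie above 0 in both, G2/M genes lie below 0 in both, sterol synthesis genes lie mostly below 0 in PC20 and above 0 in PC5, and *Ddit4* stands alone at 1.45 and -0.57.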

How the data were processed

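Single-cell RNA-seq of PC5 and PC20 was made with a 10x Genomics 3′ kit, and per the submitters' processing notes reads were mapped to mm10 with Cell Ranger 5.0. The authors deposited raw UMI counts per gene and barcode, without normalization, for 31053 genes. These libraries of 223978480 (PC5) and 191306354 (PC20) UMIs were grouped by passage as labelled. The study's cell filter was applied, which asks for over 1000 genes and less than 20% of UMIs from mitochondrial genes, and no doublets were removed.

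UMIs were summed over cells and scaled to CPM, so deeper cells weigh more, and 3′ UMIs are not scaled by gene length. Intervals at the 95% level were exact Poisson for CPM, conditional binomial for log2 ratios and Clopper-Pearson for shares. UMIs of thinned cells were drawn without replacement to 10000 per cell. Gene positions came from GENCODE M21, which matched 30934 identifiers. Symbols were used as deposited, and of 2 identifiers named *Aldoa* the first was taken.

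The cells, the 28 gene lists and the rules were chosen with earlier results of these data known. Genes were named if they were score genes, list members or among the 15 with the largest and the 15 with the smallest log2 ratio, without the score genes, pseudogenes and unnamed models. A few listed genes and a marker list are not reported here, while list counts and medians use all members counted. Python 3.11.15 with numpy 2.4.6, scipy 1.17.1, pandas 2.3.3 and matplotlib 3.10.9 was used, and the computation was tested on simulated data.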

Additional observations from a re-analysis of the deposited data

Results flagged for a closer look

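Some results pointed in opposite directions in the 2 libraries under the same rule, top 10% of cells by score over the others. None of these differences was tested, since each passage had 1 library. The median log2 ratio of the mitochondrially encoded respiratory chain genes was -0.36 in PC20 and 0.28 in PC5, and that of sterol synthesis was -0.39 and 0.39. Within the latter list *Hmgcs1*, the enzyme that makes HMG-CoA, had -0.78 and 0.53. Among single genes *Ddit4* had 1.45 in PC20 and -0.57 in PC5, *Pmepa1* -1.99 and 0.50, and *Igf2bp1*, with 10 UMIs in the PC20 cells, -2.45 and 0.58. The median of all counted genes also differed, at -0.10 and 0.13, and the cells chosen in PC5 were mostly led by other score genes.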

How the results depend on the processing

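The medians of glycolysis (0.43 to 0.59) and other HIF-1 targets (0.51 to 0.72) stayed above 0 under 19 alternatives, as did that of immediate-early and heat shock genes (0.25 to 0.67). Those of sterol synthesis (-0.52 to -0.16) and the mitochondrially encoded respiratory chain (-0.42 to -0.18) stayed below 0 and were nearest to 0 in the top 20% of cells. Among the glycolysis genes called higher, *Pgam1* was past 0.5 in only 7 of 17 alternatives (lowest 0.44) and *Hk2* in 16. The medians of ATF4 targets (-0.12 to 0.08), angiogenic factors (-0.02 to 0.20), mitophagy (-0.14 to 0.19), metallothionein and iron (-0.04 to 0.24) and NF-kB targets (-0.68 to 0.04) took either sign. Genes higher and lower numbered 291 and 392 in the top 20% of cells, 895 and 2330 with genes in at least 1% of cells, 1416 and 3245 at a log2 ratio of 0.25, and 95 and 171 at 1. They numbered 696 and 2133 in the top 5%, 378 and 852 within 5 depth classes, and 475 and 899 without *Ndrg1* in the score. With genes in at least 25% of cells they numbered 364 and 816. The G2/M median moved to -0.98 in the top 5%, -0.39 in the top 20%, -0.17 within 5 depth classes, -0.46 without *Ndrg1*, -0.35 in cells with no *Mki67* and no *Top2a* UMI, and -0.81 with a total without mitochondrial and ribosomal protein genes. The S phase median moved to -0.27 in the top 20%, -0.32 without *Ndrg1*, -0.31 with equal weights and -0.32 centred on the median gene, a choice made after seeing the data that also moved the nuclear respiratory chain to -0.037. The share of chosen cells with a *Mki67* or *Top2a* UMI moved to 58.6% in the top 5% and 70.9% within 5 depth classes. Chosen and other cells had 49.4% and 59.1% where cells were thinned before the choice, and 53.9% and 64.3% where cells were chosen on a random part of the UMIs and measured in the rest.

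In PC5, genes higher numbered 954 in the top 5%, 362 in the top 20% and 405 within 5 depth classes, and lower 80 and 57 in the latter 2. The median of other HIF-1 targets was 0.64 in the top 5%. That of G2/M was -0.60 in the top 20%, -0.69 thinned and -0.25 within 5 depth classes, that of the mitochondrial genes 0.17 thinned and 0.16 within depth classes, and that of matrix genes 0.41 thinned. The share with a *Mki67* or *Top2a* UMI in chosen and other cells was 33.2% and 47.9% in the top 20%, 24.2% and 35.9% thinned, and 20.9% and 36.2% on separate UMIs, and 36.0% in chosen cells within depth classes. Causes were not tested beyond what each alternative changes by construction.

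No paired analysis was possible because each passage had 1 library and no replicate numbers. With 1 library per passage the values carry counting error only, and rare genes (under about 50 UMIs in the chosen cells) have wide intervals. A gene with no UMI may still be present at a low level in the 475 cells.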
